A study of Mus musculus with 8 samples.

Results

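Regulatory T (Treg) cells restrain other cells partly through molecules that they secrete or carry on the surface, and 10 genes for such mediators were examined here. They were selected by symbol from the 49212 genes counted in every library: Il10, Ebi3, Il12a, Tgfb1, Lrrc32, Nrp1, Entpd1, Nt5e, Fgl2 and Areg. All 10 were present in the count tables. The question was which of them had lower transcript levels without Blimp1, the transcription factor encoded by Prdm1, in both spleen and tumor.

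RNA was sequenced from sorted CD45+CD44+YFP+CD4+CD3+ cells, called effector Treg (eTreg) cells, in 8 libraries with 2 per group. The 4 groups were splenic and tumor-infiltrating lymphocyte (TIL) eTreg populations from Prdm1 fl/fl FoxP3 YFP-Cre animals, labelled KO here, and from FoxP3 YFP-Cre animals, labelled WT. All mice were on the C57BL/6 background, were 5 to 10 weeks old by the study's methods, bore B16-OVA melanoma (a mouse melanoma line that carries ovalbumin) of up to 1.5 cm3, and received NP-OVA in complete adjuvant on day 0 and in incomplete adjuvant on day 7. All groups, controls included, carried the YFP-Cre fusion driven by Foxp3, so that deletion and sorting both depend on Foxp3 expression. The labels do not say whether 2 libraries of a group came from separate mice or pools, or whether spleen and tumor of one number share a mouse, so p-values measure only the spread between these libraries, which may be technical.

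As background, these mediators act by several routes. IL-10 signals through its receptor and STAT3 to dampen myeloid and T cell responses, and EBI3 pairs with the p35 chain encoded by Il12a to form IL-35. TGF-β1 is made in a latent form that GARP, the product of Lrrc32, holds on the Treg surface, and neuropilin-1 marks many thymus-derived Treg cells. CD39 (Entpd1) and CD73 (Nt5e) convert extracellular ATP to adenosine in sequence, FGL2 is secreted and binds the inhibitory receptor FcγRIIB, and amphiregulin (Areg) is an epidermal growth factor receptor ligand linked to tissue repair. Blimp1 is a zinc finger repressor and activator found in effector Treg cells, and Il10 is among the genes linked to it in T cells.

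The deleted gene was checked first. Prdm1 was at 54.1 and 21.0 CPM (counts scaled to a common library total) in WT spleen, 40.7 and 53.4 in KO spleen, 108.4 and 192.1 in WT TIL and 90.7 and 75.1 in KO TIL. The splenic libraries labelled KO thus did not have lower Prdm1 counts than those labelled WT (log2 fold change 0.32, standard error 0.49), and those of TIL lay below WT (log2 fold change -0.86, standard error 0.37) without passing edgeR's test (adjusted p = 0.554). Counts were summed over all exons, and exons outside the deleted part can still be counted, so this sum is a weak check of the labels. KO and WT below mean the libraries so labelled.

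Libraries held 27834676 to 43903859 counts on genes, and 3 counts, taken as the floor, were worth 0.0644 to 0.112 CPM (counting error only). The second WT splenic library stood apart from the first: Cd4 was at 384 against 891 CPM, macrophage markers summed to 1561 against 380.2 CPM, and red cell markers to 1350 against 156 CPM. The whole list of CD4 T cell markers, Cd4 included, did not follow Cd4 and summed to 6078 against 5539 CPM. Treg identity markers summed to 2318 against 2081 CPM. The KO TIL libraries stood apart from the WT TIL libraries in the sorted identity itself. Foxp3 was at 10.2 and 2.99 CPM in KO TIL against 25.5 and 60.5 in WT TIL, and Cd4 at 147.8 and 66.2 against 807.4 and 1086.3. Xist was at 73.3 to 266.5 CPM and 4 Y-linked genes were at 0.0748 CPM or less in all 8 libraries, so sex did not differ between groups by these transcripts. In bulk samples such as these, fewer cells of a type and less RNA per cell cannot be told apart.

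Il10 was the only mediator that lay far below WT in spleen. It is encoded at chr1:131019845-131024974 (GRCm38, plus strand, 5 exon blocks). WT splenic libraries were at 14.28 and 14.02 CPM, and KO splenic libraries at 0.773 and 0.938 CPM, from 36 and 37 counts. In TIL, WT libraries were at 101.2 and 105.6 CPM and KO libraries at 32.4 and 5.16 CPM. The groups did not overlap in either tissue, but the KO TIL libraries differed from each other, and the WT splenic values lay between them. Il10 was 16.6-fold lower in KO than in WT in spleen (log2 fold change -4.05, standard error 0.46) and 5.52-fold lower in TIL (log2 fold change -2.46, standard error 0.85). With edgeR's quasi-likelihood test and Benjamini-Hochberg adjustment over all genes, neither passed an adjusted p of 0.05 (0.140 in spleen and 0.446 in TIL; unadjusted 5.06e-05 and 0.0313). By DESeq2's Wald test the adjusted p values were 5.62e-12 in spleen and 0.0485 in TIL. Leaving out 1 library at a time kept the splenic value between -4.18 and -3.89, whereas the TIL value was -4.32 without the first KO TIL library and -1.69 without the second.

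Ebi3, the other subunit gene of IL-35 and also of IL-27, also lay below WT, by a smaller amount in spleen. It lies at chr17:55952623-55957021 (plus strand, 5 exon blocks), and its exons overlap 2 exons of the antisense gene Gm16712, which had at most 51 counts in a library. Its levels were 77.4 and 91.0 CPM in WT spleen, 51.4 and 48.9 in KO spleen, 77.2 and 110.2 in WT TIL and 34.4 and 8.72 in KO TIL. KO lay below WT without overlap in both tissues. The log2 fold change was -0.75 in spleen (standard error 0.32) and -2.13 in TIL (standard error 0.69), and neither passed by edgeR (adjusted p = 0.878 and 0.409) or DESeq2 (adjusted p = 0.983 and 0.0579). The study itself singled out Il10 and Ebi3 from the same TIL libraries, so their direction there is not independent evidence.

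Ebi3 and Areg are shown with their promoters because both lay below WT in each tissue, and Nt5e, printed further on, because it lay below WT only in TIL. Promoters were taken from RefSeq (GRCm38.p6), from 250 bases before to 50 bases after a transcript start, for 8 of the 10 genes. Capitals mark GAAAG, the core of the motif that Blimp1 is known to bind, on either strand (CTTTC when read on the printed strand). The Ebi3 promoter spans chr17:55952373-55952672.
Ebi3: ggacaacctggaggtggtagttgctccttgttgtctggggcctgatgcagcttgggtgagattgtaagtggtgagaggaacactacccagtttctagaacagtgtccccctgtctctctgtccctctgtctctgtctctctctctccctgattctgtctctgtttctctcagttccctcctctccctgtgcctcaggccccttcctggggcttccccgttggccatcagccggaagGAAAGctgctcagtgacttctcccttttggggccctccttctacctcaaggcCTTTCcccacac
It held 2 matches, 14 bases before and 38 bases after the start. Of 32851 promoters of 300 bases, 57.3% held GAAAG, so such a match is common. The longer GTGAAAG, in 4.24% of promoters, contains GAAAG. It was in none of the 10 promoters available, which came from 8 genes and left out Il10 and Lrrc32. A match is a description of the letters and not a site.

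Il12a, which encodes the p35 chain, was near the limit of detection. It lies at chr3:68690644-68698547 (plus strand, 6 exon blocks). Splenic libraries held 0 and 5 counts in WT and 2 and 0 counts in KO, at or near the floor of 3 counts, so no fold is given and the gene did not pass the filter on low counts there. TIL libraries held 10 and 6 counts in WT (0.359 and 0.203 CPM) and 25 and 21 counts in KO (0.794 and 0.786 CPM). KO lay above WT in TIL, by 1.48 on the log2 scale (standard error 0.70; edgeR adjusted p = 0.592). Per kilobase of exon, Il12a was at 0.165 RPKM and Ebi3 at 80.1 RPKM in WT TIL, and at 0.464 and 18.4 RPKM in KO TIL.

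**Figure D1:**
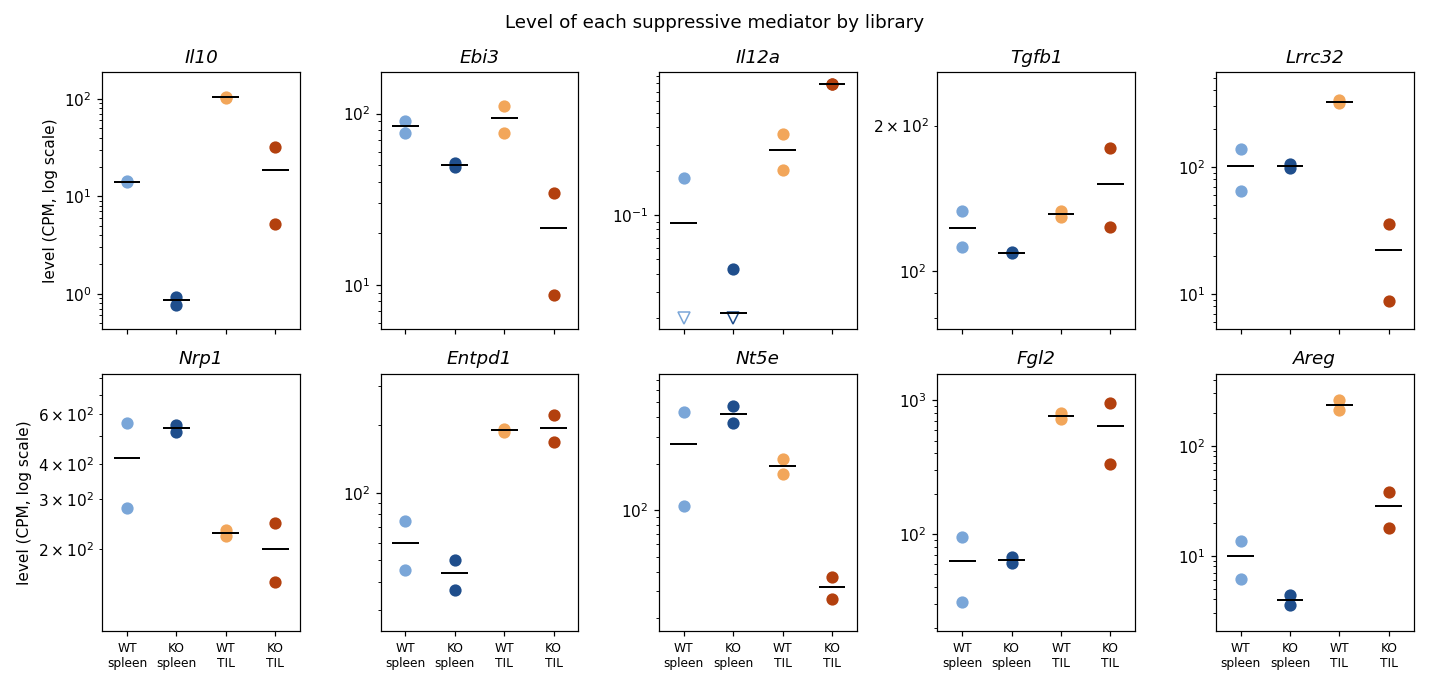
Level of each of the 10 mediators in CPM on a log axis, with 1 point per library, a bar at the mean of 2 libraries, and open triangles for libraries with 0 counts. KO lay below WT in both tissues for Il10, Ebi3 and Areg, only in TIL for Lrrc32 and Nt5e, and the KO TIL points of Il10 were at 32.4 and 5.16 CPM.

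In the TGF-β axis, the cytokine gene overlapped between genotypes in TIL while the gene of its surface anchor was low in KO TIL. Tgfb1 (chr7:25687002-25705077, plus strand, 8 exon blocks) was at 133.3 and 112.4 CPM in WT spleen, 108.8 and 109.3 in KO spleen, 129.4 and 133.0 in WT TIL and 180.0 and 123.4 in KO TIL. The log2 fold changes were -0.18 in spleen (standard error 0.32) and 0.21 in TIL (standard error 0.31). Splenic KO libraries were just below both WT ones, and TIL libraries overlapped.

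Lrrc32 (chr7:98489283-98502181, plus strand, 4 exon blocks) was at 137.9 and 64.9 CPM in WT spleen and 98.2 and 105.3 in KO spleen, where the KO libraries lay between the WT ones. In TIL it was at 316.7 and 333.7 CPM in WT and at 35.5 and 8.87 CPM in KO. The TIL difference was 14.7-fold, a log2 fold change of -3.88 (standard error 0.72), against 0.00 in spleen (standard error 0.42). It did not pass edgeR's test in TIL (adjusted p = 0.225) and passed DESeq2's (adjusted p = 6.5e-06). The difference between the tissues, tested as an interaction of genotype and tissue over 8 libraries, was -3.88 on the log2 scale (standard error 0.87; adjusted p = 0.269 by edgeR and 0.00300 by DESeq2). WT TIL was thus the group with the most Lrrc32 and KO TIL the group with the least, with both splenic groups between them and overlapping each other.

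Nrp1 (chr8:128358604-128503363, plus strand, 18 exon blocks) was at 557.5 and 280.8 CPM in WT spleen, 516.6 and 550.2 in KO spleen, 223.1 and 233.8 in WT TIL and 248.1 and 153.9 in KO TIL. Genotypes overlapped in both tissues, with log2 fold changes of 0.34 in spleen (standard error 0.42) and -0.19 in TIL (standard error 0.34). Levels in TIL lay below those in spleen in each genotype, by -0.87 in WT (standard error 0.48; edgeR adjusted p = 0.346) and -1.39 in KO (standard error 0.32; edgeR adjusted p = 0.0745).

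The genes of the 2 ectoenzymes differed from each other in KO TIL. Entpd1, which encodes CD39 and acts first on ATP and ADP, lies at chr19:40612366-40741602 (plus strand, 17 exon blocks). It was at 74.8 and 45.0 CPM in WT spleen, 37.0 and 50.4 in KO spleen, 191.7 and 187.3 in WT TIL and 221.9 and 168.1 in KO TIL. Genotypes overlapped in each tissue, with log2 fold changes of -0.46 in spleen (standard error 0.39) and 0.04 in TIL (standard error 0.29).

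Nt5e, which encodes CD73 and makes adenosine from AMP, lies at chr9:88327197-88372092 (plus strand, 9 exon blocks). WT splenic libraries were at 430.3 and 105.9 CPM and KO splenic libraries at 475.0 and 367.1 CPM, with overlap. In TIL, WT libraries were at 172.3 and 216.0 CPM and KO libraries at 36.7 and 26.6 CPM, with no overlap. The TIL difference was 6.15-fold (log2 fold change -2.62, standard error 0.33), with an adjusted p of 0.177 by edgeR and 3.89e-06 by DESeq2. In spleen the log2 fold change was 0.65 (standard error 0.63), and the value rested on the low second WT library: it was 2.05 without the first WT library and -0.03 without the second. The interaction of genotype and tissue was -3.27 (standard error 0.83; adjusted p = 0.322 by edgeR and 0.0135 by DESeq2). The Nt5e promoter, chr9:88327359-88327658, held no GAAAG on either strand in this window.
Nt5e: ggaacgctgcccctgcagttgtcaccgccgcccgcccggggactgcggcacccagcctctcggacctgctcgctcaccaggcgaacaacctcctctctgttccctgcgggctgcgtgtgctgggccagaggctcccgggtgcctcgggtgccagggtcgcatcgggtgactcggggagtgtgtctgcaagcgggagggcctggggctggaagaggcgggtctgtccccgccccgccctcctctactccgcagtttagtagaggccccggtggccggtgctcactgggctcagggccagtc

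Fgl2, whose product is a secreted ligand of FcγRIIB, was high in TIL whatever the genotype. It lies at chr5:21372642-21378374 (plus strand, 2 exon blocks). Splenic libraries were at 94.8 and 31.4 CPM in WT and 67.3 and 60.9 CPM in KO, and TIL libraries at 718.2 and 801.6 CPM in WT and 952.1 and 336.6 CPM in KO. The KO values lay inside the WT range in spleen and on both sides of it in TIL. Log2 fold changes were 0.02 in spleen (standard error 0.52) and -0.24 in TIL (standard error 0.54).

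Areg (chr5:91139599-91148432, plus strand, 6 exon blocks) was lower in KO in each tissue. Its levels were 6.08 and 13.7 CPM in WT spleen, 4.36 and 3.57 in KO spleen, 261.8 and 210.9 in WT TIL and 38.1 and 18.0 in KO TIL. The 4 groups kept an order without overlap: WT TIL, KO TIL, WT spleen and KO spleen. The log2 fold change was -1.33 in spleen (standard error 0.52; adjusted p = 0.878 by edgeR and 0.909 by DESeq2) and -3.08 in TIL (standard error 0.46; adjusted p = 0.179 by edgeR and 5.24e-06 by DESeq2), an 8.45-fold difference in TIL. The splenic value was -0.61 without the second WT library and -1.73 without the first. Its promoter, chr5:91139349-91139648, held 1 GAAAG, 162 bases before the start.
Areg: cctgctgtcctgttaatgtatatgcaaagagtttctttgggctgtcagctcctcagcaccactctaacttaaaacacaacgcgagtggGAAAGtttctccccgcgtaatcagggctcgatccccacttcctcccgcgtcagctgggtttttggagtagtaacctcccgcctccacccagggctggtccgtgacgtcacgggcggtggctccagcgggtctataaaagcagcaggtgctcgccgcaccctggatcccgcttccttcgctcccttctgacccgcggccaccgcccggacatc

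Across the set, 3 of the 10 genes, Il10, Ebi3 and Areg, were lower in KO without overlap in both tissues, where 3.53% of all genes tested were. In spleen alone, 4 of the 9 genes that passed the filter (Il10, Ebi3, Areg and Tgfb1) were lower without overlap, with 15.7% of all genes. In TIL, 5 of 10 (Il10, Ebi3, Areg, Lrrc32 and Nt5e) were, with 19.4% of all genes, and Il12a was higher, with 18.0%. By edgeR's test (adjusted p under 0.05 with a change of more than 1 log2 unit), 0 of the mediators passed in either tissue, as did 0% of all genes. At an unadjusted p under 0.05, 2 were lower in spleen (1.42% of genes), 5 in TIL (3.53% of genes) and 3 over both tissues (2.62% of genes). DESeq2's Wald test called 1 lower in spleen (Il10; 0.0444% of genes) and 4 in TIL (Il10, Lrrc32, Nt5e and Areg; 1.20% of genes).

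In 1 additive model of tissue and genotype over 8 libraries, the genotype term was -3.22 on the log2 scale for Il10 (standard error 0.58), -2.21 for Areg (standard error 0.47) and -1.43 for Ebi3 (standard error 0.46). Their adjusted p values were 0.491, 0.619 and 0.707 by edgeR and 1.33e-05, 0.00188 and 0.178 by DESeq2, so that Il10 and Areg were the 2 mediators DESeq2 called (0.227% of genes). Without the first KO TIL library edgeR called Il10 as well (log2 fold change -4.15, adjusted p = 0.00234). The interaction with tissue was 1.59 for Il10 (standard error 0.97), -1.76 for Areg (standard error 0.68) and -1.37 for Ebi3 (standard error 0.78), and none of these 3 passed in edgeR or DESeq2. At an unadjusted p under 0.05, edgeR listed 3 mediators as lower for this interaction (Lrrc32, Nt5e and Areg; 2.75% of genes), and DESeq2 called 2 (Lrrc32 and Nt5e; 0.585% of genes). The median log2 fold change of the mediators was -0.18 in spleen, -1.18 in TIL and -0.59 over both, against -0.02, 0.04 and 0.01 over all genes tested.

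**Figure D2:**
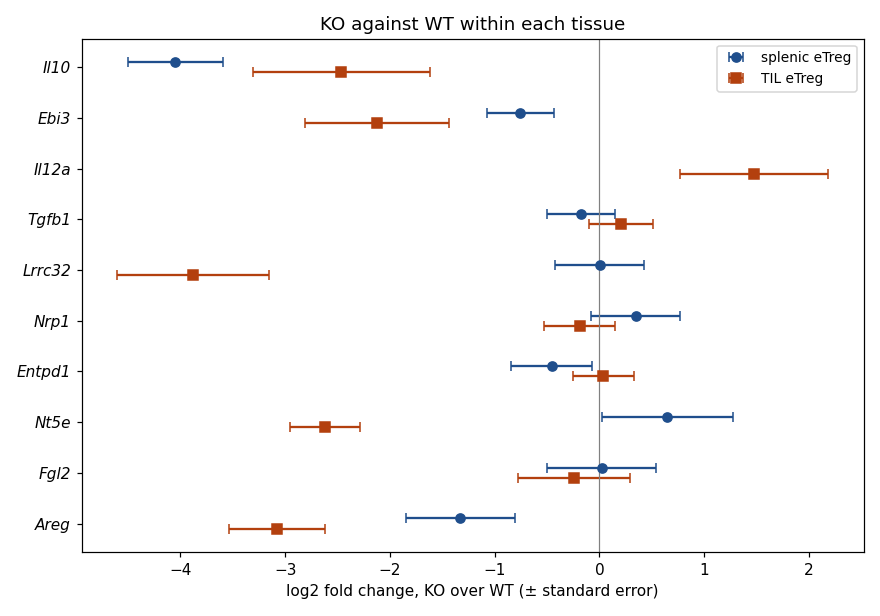
Log2 fold change of KO over WT from edgeR for each mediator in spleen (circles) and TIL (squares), with bars of 1 standard error; Il12a was not tested in spleen. Lrrc32 was at 0.00 in spleen and -3.88 in TIL, and Nt5e at 0.65 and -2.62, while Il10 was at -4.05 and -2.46.

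Treg identity transcripts were low in KO TIL as well. All 6 Treg identity markers (Foxp3, Ikzf2, Ikzf4, Il2ra, Ctla4 and Tnfrsf18) lay below WT without overlap in TIL, with log2 fold changes from -3.03 to -2.71 and summed levels of 761 to 1380.3 CPM in KO against 6259 to 8815 CPM in WT. The 5 mediators that were low in KO TIL had log2 fold changes from -3.88 to -2.13. In spleen the same markers summed to 1430.0 to 1566 CPM in KO and 2081 to 2318 CPM in WT, and 3 of 6 were lower without overlap. Of all genes tested, 19.4% were lower without overlap in TIL and 15.7% in spleen.

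Markers of several other cell types differed as well in TIL, in both directions. Of all genes tested there, 18.0% were higher and 19.4% lower without overlap, and DESeq2 called 1.20% lower. The 4 CD8 T cell markers were all higher in KO TIL without overlap (summed 456.0 to 2396 CPM against 58.3 to 184 CPM). Macrophage markers had positive log2 fold changes in 7 of 7, with overlap (1556 to 13979.7 CPM against 440 to 2829 CPM). Natural killer cell markers had positive log2 fold changes in 6 of 6, with 3 not overlapping (434 to 2046 CPM against 99.9 to 467 CPM), but most of these sums came from Tyrobp and Fcer1g, which myeloid cells also express. Ncr1, which is more restricted to natural killer cells, was at 13.4 and 1.53 CPM in KO TIL against 0.647 and 0.844 in WT TIL. Summed dendritic cell markers (89.4 to 195 CPM against 41.1 to 60.2 CPM) and neutrophil markers (186 to 341 CPM against 75.0 to 132 CPM) were also above WT. In each list, 3 of 5 markers had positive log2 fold changes and 2 negative, with 3 higher and 1 lower without overlap. The lower ones were Zbtb46 (19.1 and 10.9 CPM in KO TIL against 20.4 and 21.9 in WT TIL) and Mmp9 (18.1 and 9.65 against 70.4 and 70.4). Summed fibroblast markers were below WT (1.31 to 6.67 CPM against 8.52 to 16.9 CPM), with 3 of 4 tested lower without overlap and 2 called lower by DESeq2. Some of these levels were near or below the floor, with Col1a2 at 0.572 and 0 CPM and Col3a1 at 0.508 and 0.0374 CPM in KO TIL. Red cell markers had negative log2 fold changes in 5 of 5, with overlap (692 to 726 CPM against 72.3 to 2993 CPM). None of the CD8 T cell, natural killer cell or macrophage markers was at 0 in a KO TIL library. Melanoma cell markers overlapped between the genotypes (787 to 3029 CPM against 1065 to 1959 CPM). The first KO TIL library, which held the 13979.7 CPM of macrophage markers, was above the second for 10 of 10 mediators, and the second held the 2396 CPM of CD8 T cell markers. For Il12a the 2 libraries were nearly equal (0.794 and 0.786 CPM). The share of all genes above in the first library was not computed. The part of these markers in the mediator levels was not tested.

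**Figure D3:**
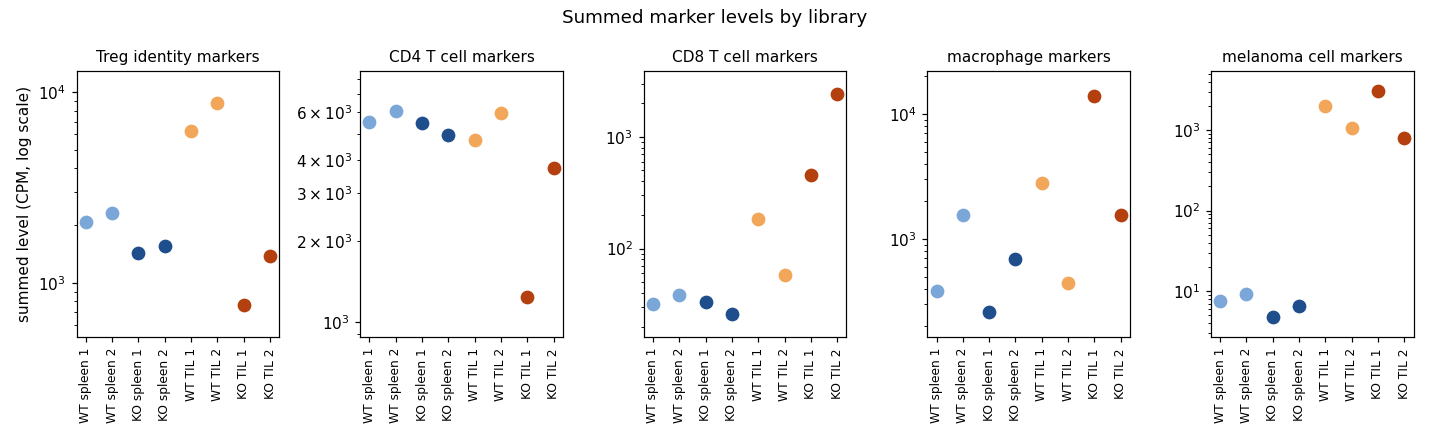
Summed CPM of 5 marker lists in each of the 8 libraries, on log axes. Treg identity markers were at 761 to 1380.3 CPM in KO TIL and 6259 to 8815 CPM in WT TIL, and macrophage markers reached 13979.7 CPM in the first KO TIL library.

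The sort required CD4, CD3 and Foxp3-driven YFP, so each mediator was also expressed as a log2 ratio to the transcripts of Cd4, Foxp3 and Cd3e. Exons of Foxp3 overlap 8 exons of Ccdc22 and 4 of Gm36995 on the other strand and 1 of Ppp1r3fos (at most 795 counts in a library), so its counts, of which the second KO TIL library held 80, are less certain. These ratios have no test, because an exact permutation test of 2 against 2 libraries cannot go below a two-sided p of 0.333. The share of all genes that were lower on these ratios was not computed. Counts of mediators on these scales therefore have no background to be read against. In spleen, Il10 stayed low relative to all 3, by -4.72 to Cd4, -3.67 to Foxp3 and -3.87 to Cd3e, each without overlap. Areg was lower relative to Cd4 (-1.89) and Cd3e (-1.04), as was Ebi3 (-1.43 and -0.58), and both overlapped relative to Foxp3 (-0.84 and -0.37). Cd4 itself was low in the second WT splenic library, and relative to it 7 mediators were lower in KO spleen. Fewer libraries overlap less easily, and without the second WT splenic library 7 rather than 3 mediators were lower relative to Cd3e. Without the first WT splenic library 4 rather than 1 were lower relative to Foxp3. Among these was Il12a, which rested on 5 counts in WT against 2 and 0 in KO.

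In TIL the order depended on the reference. Relative to Foxp3, Lrrc32 was the only mediator lower in KO without overlap (-1.37), and Il10 (-0.17), Areg (-0.34), Ebi3 (0.41) and Nt5e (0.20) overlapped. Relative to Cd4, Lrrc32 was again the only one lower (-0.95), with Il10 at 0.25 and Areg at 0.08, both overlapping, while Ebi3 (0.83) and Nt5e (0.62), which were lower in CPM, were higher without overlap. Relative to Cd3e, Lrrc32 (-3.18), Areg (-2.15) and Nt5e (-1.61) were lower, while Il10 (-1.98) and Ebi3 (-1.39) overlapped, and Cd3e differed between the KO TIL libraries (315.6 and 1023.0 CPM). Entpd1, Tgfb1, Nrp1 and Fgl2 were higher in KO TIL relative to both Cd4 and Foxp3, by 2.82 to 3.43 and by 2.40 to 3.01. Il12a was also higher without overlap relative to Cd4 (4.73), Foxp3 (4.31) and Cd3e (2.51), from 25 and 21 counts in KO TIL and 10 and 6 in WT TIL. Without the first KO TIL library, 7 rather than 3 mediators were lower relative to Cd3e and 2 rather than 1 relative to Cd4 and to Foxp3, and without the second WT TIL library 3 were lower relative to Foxp3 and 2 relative to Cd4.

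Which mediators were lower in both tissues therefore depended on the scale. In CPM they were Il10, Ebi3 and Areg. Relative to Cd3e it was Areg alone, relative to Cd4 it was Lrrc32 alone (-0.58 in spleen and -0.95 in TIL), and relative to Foxp3 there was none of the 10. In CPM 3.53% of all genes tested were lower in both tissues, and for the ratios that share was not computed. These sets turned on single TIL libraries. Without the first KO TIL library they were Il10, Ebi3 and Areg relative to Cd3e, Il10 and Lrrc32 relative to Cd4, and Il10 relative to Foxp3. Without the second WT TIL library, Il10 joined Areg relative to Cd3e, Areg joined Lrrc32 relative to Cd4, and Il10 was lower relative to Foxp3. Without the second WT splenic library, Lrrc32 joined Areg relative to Cd3e.

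**Figure D4:**
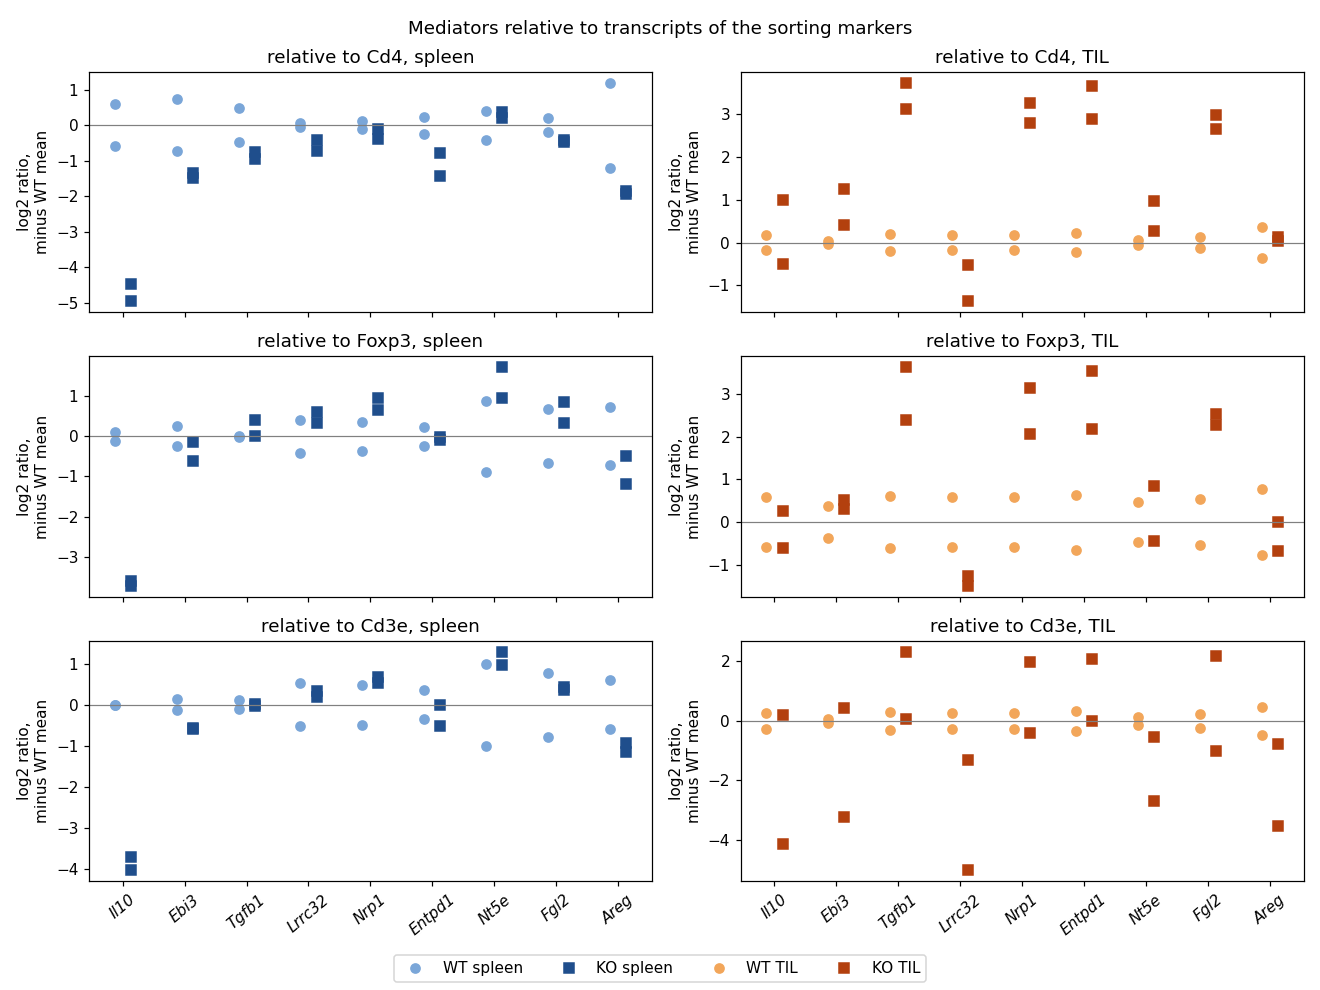
Log2 ratio of 9 mediators to Cd4, Foxp3 and Cd3e in each library, minus the WT mean of that tissue; Il12a is left out because of counts at 0. Il10 lay 3.67 to 4.72 below WT in spleen on all 3 scales, while in TIL Lrrc32 was the only mediator below WT on all 3.

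Between tissues, 3 mediators were more abundant in WT TIL than in WT spleen by edgeR's test, where 4.10% of all genes were higher. They were Areg (23.8-fold, log2 fold change 4.57, standard error 0.58, adjusted p = 0.00230), Fgl2 (12.1-fold, 3.60, standard error 0.61, adjusted p = 0.00831) and Il10 (7.31-fold, 2.87, standard error 0.44, adjusted p = 0.00537). With 8 libraries in edgeR's fit the call of Il10 was lost (adjusted p = 0.0644). Lrrc32 (1.69, standard error 0.50) and Entpd1 (1.67, standard error 0.46) were higher without overlap and missed the threshold in edgeR (adjusted p = 0.0787 and 0.0611), and passed in DESeq2 (adjusted p = 0.0140 and 0.00890; 6.50% of genes were higher by that test). Without overlap, 5 mediators were higher (25.1% of genes) and Nrp1 was lower (27.0% of genes). Ebi3 (0.15), Tgfb1 (0.10) and Nt5e (-0.46) overlapped between WT tissues.

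In the KO libraries, Nt5e was the mediator that edgeR called, 13.1-fold lower in TIL than in spleen (log2 fold change -3.71, standard error 0.32, adjusted p = 0.0366), where 0.543% of all genes were lower. The call was lost without the first KO splenic library (adjusted p = 0.130) or the second (adjusted p = 0.105). DESeq2 called 8 mediators, of which Il10, Il12a, Entpd1, Fgl2 and Areg were higher in TIL (13.1% of genes) and Lrrc32, Nrp1 and Nt5e lower (6.58% of genes). Il10 was still above spleen in KO TIL, by 4.49 on the log2 scale (standard error 1.04; edgeR adjusted p = 0.0733), from the very low splenic level. Areg (2.85), Fgl2 (3.36) and Entpd1 (2.17) were also above spleen without overlap, and Lrrc32 (-2.17) and Ebi3 (-1.19) below it, with adjusted p values from 0.0516 to 0.305 for these 5 genes by edgeR. Il12a, with 2 and 0 counts in KO spleen, and Tgfb1 (0.50) lay above spleen as well. In all, 6 mediators were higher without overlap (30.6% of genes) and 4 lower (32.9% of genes). Melanoma cell markers were at 4.79 to 9.28 CPM in spleen and 787 to 3029 CPM in TIL, and in KO, macrophage markers were at 259 to 695 CPM in spleen and 1556 to 13979.7 CPM in TIL. CD8 T cell markers (26.2 to 33.0 against 456.0 to 2396 CPM), dendritic cell markers (13.4 to 21.1 against 89.4 to 195 CPM) and neutrophil markers (10.9 to 15.0 against 186 to 341 CPM) were likewise above spleen in KO TIL. The part of these markers in the tissue differences was not tested.

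**Figure D5:**
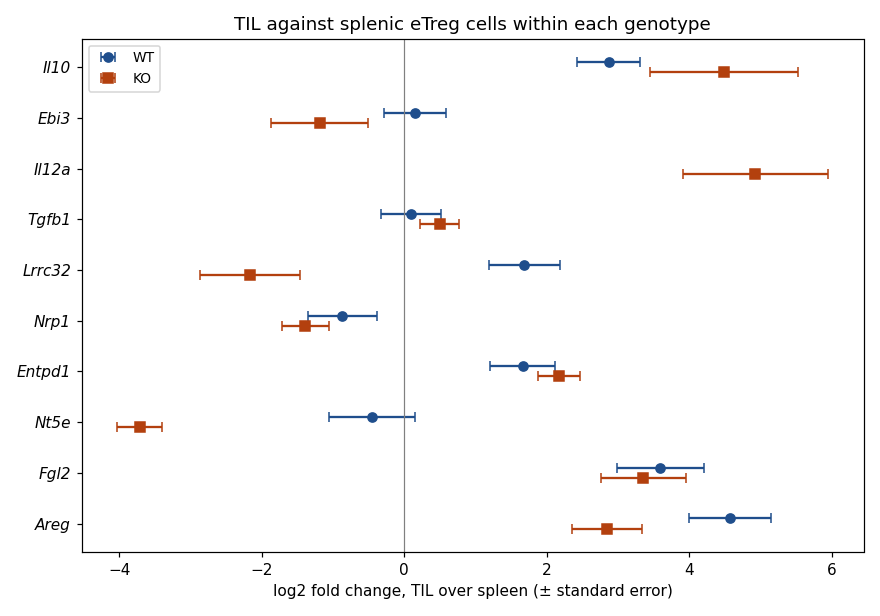
Log2 fold change of TIL over spleen from edgeR for each mediator within WT (circles) and within KO (squares), with bars of 1 standard error; Il12a was not tested in WT. Fgl2 and Entpd1 had like values in both genotypes (3.60 and 3.36, and 1.67 and 2.17), while Lrrc32 was at 1.69 in WT and -2.17 in KO.

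Ranked per kilobase of exon, the most abundant mediator differed between tissues. Ebi3 led in WT spleen (72.0 RPKM), followed by Nrp1 (42.8 RPKM), and the neighbours from Nrp1 down to Areg (8.15 RPKM) overlapped one another. In KO spleen Nrp1 (54.5 RPKM), Nt5e (48.9 RPKM) and Ebi3 (42.9 RPKM) led, and Il10 was ninth of 10 at 0.653 RPKM. In WT TIL Fgl2 (200.6 RPKM) and Areg (194.5 RPKM) overlapped at the top, Ebi3 (80.1 RPKM) and Il10 (78.9 RPKM) overlapped next, and Lrrc32 followed at 69.4 RPKM. In KO TIL Fgl2 stayed first (170.1 RPKM), and every neighbouring pair from Entpd1 (34.9 RPKM) down to Nt5e (3.68 RPKM) overlapped.

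The wider pathways were read through lists of genes that act with these mediators. In the 6 lists, 0 genes passed edgeR's test between genotypes in either tissue. The counts below are to be read against all genes. At an unadjusted p under 0.05, edgeR listed 1.53% of all genes as higher and 1.42% as lower in spleen, and 6.34% and 3.53% in TIL. DESeq2 called 0.372% higher and 0.0444% lower in spleen, and 3.48% and 1.20% in TIL. Among 17 genes of IL-10 and IL-35 signalling, at an unadjusted p under 0.05, 1 of 14 tested was higher in spleen, and in TIL 2 of 17 were higher and 1 lower (6.34% and 3.53% of all genes). DESeq2 called 0 in spleen and 1, Il27, in TIL. Il12rb2, a receptor chain shared by IL-12 and IL-35, was above WT in both tissues (log2 fold change 2.09 in spleen, standard error 0.72, and 0.92 in TIL, standard error 0.41). Il12rb1, its partner in the IL-12 receptor, was at 64.6 and 110.8 CPM in KO TIL against 186 and 174 in WT TIL, a log2 fold change of -1.04. Il27, which encodes the chain that pairs with EBI3 in IL-27, was at 5.59 and 0.711 CPM in KO TIL against 0.216 and 0.0675 in WT TIL (DESeq2 adjusted p = 0.00867), and Bcl3 was the lowest of the list by p in spleen (log2 fold change -0.46).

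Among 22 genes of TGF-β activation and signalling, 0 of 19 tested had an unadjusted p under 0.05 by edgeR in spleen, and DESeq2 called 0. In TIL 2 of 20 were higher and 1 was lower (6.34% and 3.53% of all genes), and DESeq2 called 1 in each direction. The lower one was Itgb8, the integrin chain that releases TGF-β1 from its latent form on GARP, at 9.84 and 1.87 CPM in KO TIL against 64.4 and 56.9 in WT TIL (log2 fold change -3.37, standard error 0.81; adjusted p = 0.288 by edgeR and 0.000848 by DESeq2). In spleen Itgb8 was at 42.7 and 38.0 CPM in KO against 50.5 and 28.1 in WT, with overlap, as Lrrc32 was. Ltbp3, a binding protein of latent TGF-β, was above WT in both tissues (log2 fold change 1.33 in spleen and 2.25 in TIL), from levels of 0.0357 to 0.456 CPM in spleen. Tgfbr2, a receptor chain, was above WT in both as well (0.62 and 0.35), and Tgfb3 (2.53) and Ltbp4 (-1.68) had the smallest p of the list in spleen in each direction. Both were at low levels there. Tgfb3 was at 4.45 and 3.14 CPM in KO spleen against 1.29 and 0 in WT spleen. Ltbp4 overlapped, at 0.752 and 0.279 CPM in KO spleen against 2.66 and 0.642 in WT spleen.

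The purinergic list held 21 genes. At an unadjusted p under 0.05, edgeR found 0 of 16 in spleen and 2 of 18 in TIL, both lower, and DESeq2 called 0 in both tissues. Adk, which encodes adenosine kinase, was at 41.8 and 52.9 CPM in KO TIL against 104 and 118 in WT TIL (log2 fold change -1.23, standard error 0.29), and Cd38, an ectoenzyme that consumes NAD, at 229 and 156 against 127 and 83.2 (0.87, standard error 0.36). In spleen the smallest p values were those of Entpd5 (1.10) and Ada, adenosine deaminase (-0.84).

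For receptors and partners of Fgl2, Areg and Nrp1, 16 of 23 genes were tested in spleen, with 3 higher (1.53% of all genes) and 0 lower at an unadjusted p under 0.05, and 19 in TIL, with 2 higher (6.34% of all genes) and 2 lower (3.53%). DESeq2 called 0 in spleen, and 2 higher and 1 lower in TIL. Il1rl1, which encodes the IL-33 receptor chain ST2 carried by Treg cells that make amphiregulin, lay below WT in both tissues. It was at 42.0 and 43.7 CPM in KO spleen against 90.7 and 48.4 in WT spleen, and at 16.9 and 8.01 CPM in KO TIL against 61.8 and 101.8 in WT TIL (log2 fold changes -0.70 and -2.72; adjusted p = 0.225 by edgeR and 0.000349 by DESeq2 in TIL). Tigit, an inhibitory receptor linked to FGL2 in Treg cells, was also lower in both (-0.35 and -1.63). Egfr, the gene of the amphiregulin receptor, was above WT in both, from levels of at most 0.667 CPM. The IL-18 receptor chain gene Il18r1 was higher in KO spleen (1.46, standard error 0.35) and lower in KO TIL (-0.72, standard error 0.40), while Sema4a, which encodes a neuropilin-1 ligand, was at 215 and 309 CPM in KO TIL against 59.8 and 25.7 in WT TIL (2.62; DESeq2 adjusted p = 0.000495).

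Of 18 transcription factors with known roles at Il10, 0 had an unadjusted p under 0.05 by edgeR in spleen, where DESeq2 called 0, and in TIL 2 were higher (6.34% of all genes) and 6 lower (3.53%), of which DESeq2 called 1 and 2. Junb lay below WT in both tissues (-0.47 and -0.66). Gata3 was at 35.9 and 69.1 CPM in KO TIL against 213 and 477 in WT TIL (-2.72; DESeq2 adjusted p = 0.000769). Eomes was at 18.4 and 60.9 CPM against 2.95 and 1.22 (4.25; DESeq2 adjusted p = 3.68e-06). Rora was above WT in spleen (0.67) and below it in TIL (-1.27), both without overlap.

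The list of other suppressive genes of Treg cells, which held 20 genes, Fgl2 included, and shares Ctla4, Il2ra and Tnfrsf18 with the identity markers, was the one with most members lower. In spleen 3 were lower and 1 higher at an unadjusted p under 0.05, and in TIL 10 were lower and 0 higher, where 1.42% (spleen) and 3.53% (TIL) of all genes were lower. DESeq2 called 2 lower in spleen (0.0444% of all genes) and 10 in TIL (1.20%). The median log2 fold change was -0.47 in spleen and -1.28 in TIL. Lower in both tissues without overlap were Tnfrsf18 (GITR), Tnfrsf4 (OX40), Tnfrsf9 (4-1BB), Ccr8, Klrg1 and Pdcd1lg2, where 3.53% of all genes tested were. Pdcd1lg2 was barely separated in TIL, at 44.55 and 27.8 CPM in KO against 44.67 and 51.3 in WT. Klrg1, a receptor of terminally differentiated effector Treg cells, was at 80.7 and 80.4 CPM in KO spleen against 243 and 264 in WT spleen, and at 14.5 and 43.1 CPM in KO TIL against 370.1 and 324 in WT TIL (log2 fold changes -1.66 and -3.59; DESeq2 adjusted p = 0.0199 and 2.95e-06). Ccr8, a chemokine receptor of tumor Treg cells, was at 83.2 and 55.6 CPM in KO TIL against 853 and 950.3 in WT TIL (-3.70).

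The cytotoxic genes of that list followed another course. Gzmb, which encodes granzyme B, was at 1.20 and 3.22 CPM in KO spleen against 67.6 and 53.0 in WT spleen (log2 fold change -4.77, standard error 0.58; adjusted p = 0.190 by edgeR and 5.46e-16 by DESeq2), a difference near that of Il10 in size. Granzyme genes are closely related, so counts of 1 of them are less certain. In TIL it was at 456.3 and 4290 CPM in KO against 1986 and 1115 in WT, with overlap. Prf1, perforin, was at 1.76 and 1.57 CPM in KO spleen against 4.34 and 3.85 in WT spleen, and at 241 and 1308 CPM in KO TIL against 245 and 42.1 in WT TIL. The second KO TIL library held the higher value of both genes and the higher sum of CD8 T cell markers. Itgae, which encodes CD103, was above WT in spleen (1.02) and below it in TIL (-2.52), both without overlap.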

How the data were processed

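RNA-seq was analysed for splenic and TIL eTreg cells of WT and KO mice, with 2 libraries in each group. The values deposited by the authors are raw read counts for each gene, made with Trimmomatic 0.36, STAR 2.5.2b on GRCm38 and featureCounts of Subread 1.5.2 from uniquely mapped reads in exons; whether strand was used is not given in the sources used here. A deposited table of normalized values was not used.

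CPM were scaled by TMM over 8 libraries, and RPKM are CPM per kilobase of exon. Each comparison was fitted with edgeR 4.0.16 (R 4.3.3; quasi-likelihood test, TMM, filterByExpr) on all genes, and a gene was called where its adjusted p (Benjamini-Hochberg) was under 0.05 with a change of more than 1 log2 unit. The standard error is the log2 fold change divided by the square root of F. DESeq2 1.42.0, the tool named in the study's methods, was an alternative (Wald test). Both were also run on simulated data to check the direction and median size of planted changes, and not the numbers of calls reported here. Ratios used counts plus 0.5. Replicates differed by more than sampling noise (chi-square divided by its degrees of freedom, 41.2 to 384.2), so none was merged.

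The mediators, pathway lists and marker lists were chosen with earlier results of these data known. Genes named from a list are those whose KO libraries lay on one side of WT in both tissues, and those with the smallest p in each direction and tissue; 1 such gene is not reported here. Promoters came from RefSeq (GRCm38.p6).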

Additional observations from a re-analysis of the deposited data

Results flagged for a closer look

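For Lrrc32, the genotype effect differed between tissues by -3.88 on the log2 scale (TIL minus spleen, standard error 0.87) in a test of the difference itself over 8 libraries. DESeq2's Wald test gave an adjusted p of 0.00300, and edgeR's quasi-likelihood test gave 0.269 (unadjusted 0.00182). WT libraries had more Lrrc32 in TIL than in spleen and KO libraries less. For Nt5e the same term was -3.27 (standard error 0.83; adjusted p = 0.0135 by DESeq2 and 0.322 by edgeR, unadjusted 0.00370). EdgeR called 0 genes for this term also when each library was left out in turn.

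Over the same term Cd4 was at -3.71 (standard error 0.74; adjusted p = 0.234 by edgeR and 0.000771 by DESeq2) and Foxp3 at -2.34 (standard error 0.84; adjusted p = 0.529 by edgeR and 0.195 by DESeq2). The part of these identity transcripts in the values of Lrrc32 and Nt5e was not tested.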

How the results depend on the processing

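Counts below are of genes called and, after the word with, of mediators called. EdgeR, as reported, gave 0 genes for the genotype effect in spleen, TIL, both tissues and their difference, 981 with 3 for tissue in WT and 228 with 1 for tissue in KO. DESeq2 on the same libraries gave 75 with 1, 761 with 4, 135 with 2, 307 with 2, 1805 with 5 and 3813 with 8. DESeq2 with 8 libraries in the fit gave 50 with 1 (spleen), 930 with 5 (TIL), 2166 (tissue in WT) and 3272 with 8 (tissue in KO), and edgeR with 8 libraries gave 135 with 2 in TIL and 1743 with 5 for tissue in KO. EdgeR with no filter on low counts gave 167 with 1, 1072 with 5, 688 with 4, 752 with 2, 1922 with 5 and 3183 with 8. Library size alone in place of TMM gave 829 with 4 for tissue in KO and moved Tgfb1 between WT tissues to -0.048. The cause of these moves was not tested. Other thresholds on the fold change (none, or 2) and DESeq2's size factors left every count of called genes within 1.5 times.

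Correlations of the deviations of like-numbered libraries were 0.155 between the splenic groups, 0.234 between the TIL groups, -0.024 between the WT groups and -0.220 between the KO groups, from 2 pairs each, so the numbers were not taken to pair the libraries. The replicate block gave 101 genes with 1 mediator (Il10) in spleen, 728 with 4 in TIL (Il10, Lrrc32, Nt5e and Areg) and 5 mediators for tissue in WT, with Lrrc32 and Entpd1 added to the 3, and it changed no other call of a mediator. A crossed replicate block for tissue in KO, chosen after seeing the data, gave 2934 with 8.

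Leaving out 1 library, with the lone library of a group assumed to vary like the others, gave 21 to 3972 genes with 0 to 4 mediators in spleen, 0 in TIL, 0 to 1 with 0 to 1 over both tissues, 0 for the difference, 213 to 1401 with 3 to 5 for tissue in WT and 0 to 4958 with 0 to 8 for tissue in KO. In spleen the 3972 genes came without the first WT library, when Il10, Areg, Nt5e and Fgl2 were called. For tissue in KO, Nt5e was not called without either splenic library. These ranges of log2 fold changes crossed 0. In spleen they were -0.563 to 1.09 for Fgl2, -0.436 to 0.706 for Lrrc32, -0.287 to 0.0146 for Tgfb1, -0.772 to 0.0164 for Entpd1, -0.0612 to 0.985 for Nrp1 and -0.0303 to 2.05 for Nt5e. In TIL they were -0.0902 to 0.435 for Tgfb1, -0.175 to 0.207 for Entpd1, -0.572 to 0.0985 for Nrp1 and -1.18 to 0.305 for Fgl2. Over both tissues they were -0.335 to 0.00119 for Entpd1, -0.426 to 0.228 for Fgl2, -0.140 to 0.246 for Nrp1, -0.132 to 0.0999 for Tgfb1 and -0.277 to 1.58 for Il12a. For the difference they were -1.35 to 5.96 for Il12a, -1.28 to 0.320 for Fgl2 and -0.290 to 2.38 for Il10, and between WT tissues -1.11 to 0.891 for Nt5e and -0.0868 to 0.407 for Ebi3. The low values of Il10, Ebi3 and Areg in KO kept their direction in both tissues under all alternative edgeR and DESeq2 fits. So did Lrrc32 and Nt5e in TIL. The direction was not always kept for the ratios in TIL. Relative to Cd4, the log2 difference of KO from WT was 0.25 for Il10, 0.83 for Ebi3, 0.08 for Areg and 0.62 for Nt5e. For Lrrc32 it was -0.95.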

Other observations

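Genes whose log2 CPM followed a mediator most closely over the 8 libraries are given as a description, since libraries of a tissue and genotype share their source. For Il10 they were Ube2l6 (Pearson r 0.96), Mmp9 (0.95), Arhgef10 (0.94), Wfdc18 (0.93) and B9d1 (0.93). For Ebi3 they were Pex11a (0.98), Slc41a3 (0.98), Cd81 (0.97), Hmgn3 (0.97) and Rhod (0.97), and for Nrp1 they were St3gal2 (0.99), Kcnd1 (0.99), Gm45355 (0.98), Maged2 (0.98) and Gm9403 (0.98), among 17870 genes compared. Wfdc18 (0 to 0.857 CPM) and Gm45355 (0.0374 to 0.684 CPM) were at or near the floor in some libraries, so their values rest on few counts.

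With 2 libraries per group, a fold change rests on few values, and transcript levels do not give the amount of protein, of secreted cytokine or of surface enzyme. Il12a lay near the floor in spleen, so a genotype difference there was not detectable at this depth.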
